A study of Homo sapiens with 12 samples.

Results

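Antisense long noncoding RNAs are transcribed from the strand opposite to a protein-coding gene, and their symbols carry the name of that gene followed by -AS and a number. Of the 1148 such symbols outside the HOX clusters in the U937 table, 360 were described here: they were chosen by their measured level, with 1 transcript per symbol, that of the highest mean in the 12 libraries, kept where this mean was at least 5 normalised reads. A normalised read is a read count divided by the size factor of its library. The 10 antisense symbols of the HOX clusters were left out. Just inside the limit lay LRP4-AS1 with a mean of 5.03 and ZNF561-AS1 with 5.05, and just outside it STT3A-AS1 with 4.98 and HLA-F-AS1 with 4.97. The same limit, applied to the whole table, left 22355 of 197782 transcripts, from 13827 of 44786 symbols, for testing.

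U937 is a human myelomonocytic acute myeloid leukaemia cell line. The 4 groups of 3 libraries were untreated cells, cells given the DNA-hypomethylating agent decitabine (DAC) at 200 nM, cells given all-trans retinoic acid (ATRA), the ligand of the retinoic acid receptors, at 1 µM, and cells given both. DAC was given daily for 3 days. The labels list 3 days of treatment for ATRA too, whereas the paper describes it as added on day 3 with the last DAC dose. Exposure to ATRA may thus have been shorter than exposure to DAC. According to the labels all cells were grown in 20% FCS with 5 ng/ml GM-CSF, whereas the paper's methods give a lower share of FCS and name no GM-CSF. The labels give 72 h for the treated and 96 h for the untreated cells, whereas the design text gives 72 h for the harvest. If the times did differ, treatment and time cannot be told apart. The design text calls the libraries technical triplicates of the 1 cell line, and the p-values therefore measure only the spread between libraries, which may be technical.

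Libraries held 8042435 to 10683593 counted reads, and 3 reads, the limit below which a level was taken as at the floor, were worth 2.50 to 3.71 normalised reads. Mitochondrial transcripts took 36.3 to 42.5% of the reads. Of the 12 myelomonocytic markers examined, 9 reached a mean of 5, with CD33, MPO and CEBPA high in every library and the top transcripts of ELANE, PTPRC and CD68 at or near 0. The summed level of this list was 61460 to 68700 untreated and 36070 to 38780 with DAC + ATRA, and within it MPO had a mean of 52120 untreated and 14970 with DAC + ATRA. Other markers of the list had higher means with DAC + ATRA than untreated: ITGAM 2725 against 202, LYZ 1097 against 164, CEBPA 12930 against 7791 and CD4 4462 against 3720. Those of CSF3R, FCGR1A, CD33 and SPI1 were lower. No T cell marker and no erythroid marker of the 4 in each list had a mean of 5 over all libraries. The T cell markers summed to 0 untreated and to 6.32 to 14.8 with DAC + ATRA, where CD3G had a mean of 7.39. The summed level of the 4 B cell markers was 132 to 143 in untreated libraries and 1316 to 1396 with DAC + ATRA, nearly all of it CD79A, and that of the 4 fibroblast markers was 24.6 to 47.1 untreated and 382 to 445 with DAC + ATRA. The 4 epithelial markers summed to at most 0.91 untreated and to 12.4 to 20.0 with DAC + ATRA, with KRT8, at means of 0.303 and 12.2, the 1 marker of the list with a mean of 5 over all libraries, and CDH1 at 0 throughout. Their part in the results below was not tested.

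Many antisense RNAs start close to the start of their partner and run away from it, so that a shared promoter region serves both strands, while others lie wholly inside the partner or overlap its far end. Some act on the partner in cis, by transcription through it or by recruiting chromatin proteins, some act in trans, and for many no function is known. In the nucleus such RNAs are trimmed or degraded by the RNA exosome. Decitabine is incorporated into DNA and traps DNA methyltransferases, so CpG-rich start regions that are methylated can lose the mark, while ligand-bound retinoic acid receptors act on enhancers and promoters directly.

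By transcript identifier, 358 of the 360 antisense RNAs were found in GENCODE 44 on hg38, 347 of them as lncRNA genes, 7 as protein-coding genes and 4 as transcribed unitary pseudogenes. The annotation now carries another name for 70 of them, 49 of which are called divergent transcripts (-DT). Of the 360, 205 lay head to head with the partner, with the nearest annotated starts at most 1000 bp apart, 36 lay inside the partner, 83 overlapped it in another way, 28 lay apart from it and 7 could not be placed. HNRNPU-AS1 was the exception: its transcript is annotated on the same strand as HNRNPU, as a retained-intron transcript of that gene, and was not an antisense RNA in this annotation.

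Whether an antisense RNA can be told apart from its partner depends on counting by strand, for which the setting was not given in the sources used here. Of the 953 transcripts with at least 200 bases of their own that all lie under transcripts of the other strand, 45.5% reached 10 reads in the 12 libraries together, compared with 48.6% of the 58054 transcripts with at least 200 own bases free of the other strand and 2.02% of the 57513 with no base of their own on their strand. Transcripts of the first kind were thus detected nearly as often as those of the second. Among the antisense RNAs 9 had no base of their own, CD27-AS1 among them. In 323, a count that includes these 9, at least as many own bases were free of the other strand as were covered by it.

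The start regions of 266 antisense RNAs were found in RefSeq (GRCh38.p14, 250 bases before to 50 after the start), by the symbol or by a current name for which RefSeq lists the symbol as an older one, leaving out windows of the partner itself. These 300-base windows were richer in CpG than those of all 35116 genes in the table, with a median of 25 against 14 CpG and a median GC content of 64.8% against 58.7%. The GC box GGGCGG, searched on both strands, was present in 61.65% of them against 44.95% of all windows, the motif of nuclear respiratory factor 1 in 4.51% against 1.24%, the ETS-type sequence CCGGAAGT in 5.26% against 4.14%, CCAAT in 30.45% against 34.6% and an interferon-stimulated response element core in 2.26% against 3.57%. A direct repeat of the nuclear receptor core GGTCA with 5 bases between the cores was found in 0 of the 266 windows and in 0.0854% of all windows. The repeat with 6 bases between these cores, which is the spacing of the classical retinoic acid response element and was added after the data were seen, was found in 0 of the 266 and in 0.0541% of all windows. These letters can overlap one another and are a description only. The windows of 4 antisense RNAs are shown, with each CpG, the dinucleotide that DNA methyltransferases act on, in capitals. BOK-AS1 and GATA2-AS1 rose with DAC together with the partner gene, PROSER2-AS1 rose without it, and ITPR1-AS1 fell while its partner rose.
BOK-AS1 (chr2:241559094-241559393, minus strand): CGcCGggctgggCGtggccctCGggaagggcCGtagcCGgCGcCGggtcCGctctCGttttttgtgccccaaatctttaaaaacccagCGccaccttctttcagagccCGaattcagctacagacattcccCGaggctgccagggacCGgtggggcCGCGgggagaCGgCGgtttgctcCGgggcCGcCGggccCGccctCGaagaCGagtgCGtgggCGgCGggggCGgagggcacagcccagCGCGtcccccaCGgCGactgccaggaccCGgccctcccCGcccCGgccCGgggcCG
PROSER2-AS1 (chr10:11894661-11894960, minus strand): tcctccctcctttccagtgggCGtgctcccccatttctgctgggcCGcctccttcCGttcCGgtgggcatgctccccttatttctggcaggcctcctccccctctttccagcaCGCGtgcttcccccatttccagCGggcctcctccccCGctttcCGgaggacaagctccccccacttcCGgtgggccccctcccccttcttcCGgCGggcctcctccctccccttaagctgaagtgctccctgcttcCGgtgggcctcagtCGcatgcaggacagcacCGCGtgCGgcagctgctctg
GATA2-AS1 (chr3:128488953-128489252, plus strand): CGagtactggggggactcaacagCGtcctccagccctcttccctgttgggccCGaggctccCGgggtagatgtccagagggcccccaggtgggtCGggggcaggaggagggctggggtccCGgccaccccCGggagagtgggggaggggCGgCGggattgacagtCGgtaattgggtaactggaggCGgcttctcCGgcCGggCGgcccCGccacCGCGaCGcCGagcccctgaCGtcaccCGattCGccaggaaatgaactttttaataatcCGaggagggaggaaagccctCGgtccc
ITPR1-AS1 (ITPR1-DT, chr3:4493114-4493413, minus strand): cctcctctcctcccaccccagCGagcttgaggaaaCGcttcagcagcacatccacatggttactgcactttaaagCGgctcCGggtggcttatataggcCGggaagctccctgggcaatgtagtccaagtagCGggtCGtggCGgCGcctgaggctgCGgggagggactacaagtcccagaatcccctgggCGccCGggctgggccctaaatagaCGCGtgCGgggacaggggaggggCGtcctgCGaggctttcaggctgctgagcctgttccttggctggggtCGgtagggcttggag
The RefSeq start can differ from that of the counted transcript. The window of BOK-AS1 holds 37 CpG, that of GATA2-AS1 24, that of ITPR1-AS1 18 and that of PROSER2-AS1 17.

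The first comparison asked which antisense RNAs moved with each treatment. With DAC 79 of the 360 rose and 59 fell against untreated cells (limma on log2(normalised read count + 1), adjusted p below 0.01), or 21.9% and 16.4%. Counted in the same way, with 1 transcript for each of the 13827 symbols, 26.0% of all symbols rose and 10.4% fell, so that the rises of the antisense RNAs lay below that background and the falls above it. Of all 22355 transcripts tested, 19.4% rose and 9.68% fell, and of the 3463 lncRNA transcripts among them 22.4% rose and 11.5% fell. With ATRA 16 rose and 6 fell (4.44% and 1.67%), against 5.68% and 2.26% of symbols and 4.33% and 1.54% of all transcripts, which are shares near those of the antisense RNAs. With DAC + ATRA 94 rose (26.1%) and 84 fell (23.3%), against 28.6% and 15.5% of symbols, again fewer rises and more falls, 22.5% and 14.1% of all transcripts and 25.8% and 16.7% of lncRNA transcripts. In all, 126 antisense RNAs were called both with DAC and with DAC + ATRA, comparisons that share the untreated libraries, and 169 were called with none of the treatments. For DAC, ATRA and DAC + ATRA the median log2 fold change of the members came to 0.07, 0.02 and 0.03, beside 0.04, -0.00 and 0.04 over all transcripts tested.

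The shares of falls depended on how many reads an antisense RNA had. Of the 78 with a mean of at least 100 normalised reads, 35 fell with DAC + ATRA (44.9%) and 21 rose (26.9%), whereas of all 5082 transcripts at that level 22.5% fell and 32.6% rose, and of the 4782 symbols, each by 1 transcript, 22.3% and 33.3%. Of the 359 other lncRNA transcripts at that level 32.3% fell and 30.9% rose. With DAC the 78 gave 24 falls (30.8%) and 20 rises (25.6%), against 15.3% and 30.8% of all transcripts, 14.8% and 31.7% of symbols and 25.3% and 27.0% of the other lncRNA transcripts. The median log2 fold change of the 78 was -0.18 with DAC and -0.25 with DAC + ATRA. Of the 220 with means of 10 to 100, 48 rose and 34 fell with DAC, against 17.9% and 10.4% of all transcripts at that level, and 56 and 45 with DAC + ATRA, against 21.5% and 14.6%. Of the 62 with means of 5 to 10, 11 rose and 1 fell with DAC, against 12.4% and 3.33%, and 17 rose and 4 fell with DAC + ATRA (27.4% and 6.45%, against 15.8% and 5.76% of all transcripts at that level). A mean over all libraries of 5 can be reached through the treated libraries alone, and such members had to differ. Scaled to library size instead, which moved the median of all transcripts tested from 0.04 to -0.11 with DAC + ATRA, 39 of the 78 fell and 21 rose, beside 31.4% and 27.7% of all transcripts at that level. With DAC that scaling gave 31 falls (39.7%) and 19 rises among the 78, and it raised the share of falls among all transcripts at that level to 24.2% and lowered that of rises to 26.6%. In bulk RNA a lower level per cell and fewer cells with the RNA cannot be told apart.

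**Figure D1:**
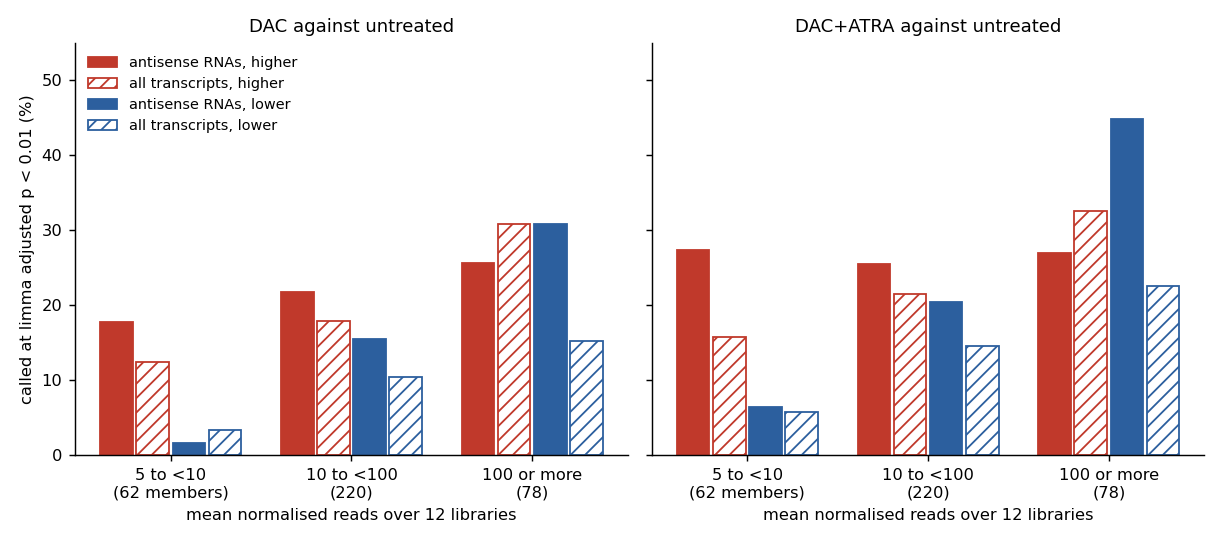
Share of transcripts called higher (red) or lower (blue) at a limma adjusted p below 0.01 (y axis, percent) with DAC (left) and DAC + ATRA (right) against untreated cells, by mean normalised reads over 12 libraries (x axis); filled bars are the antisense RNAs and hatched bars all transcripts tested at the same level. At 100 or more reads, 44.9% of the antisense RNAs and 22.5% of all transcripts were lower with DAC + ATRA.

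Among the antisense RNAs with the most reads, ITGB2-AS1 and FGD5-AS1 rose and the others fell. GABPB1-AS1 (chr15:50355467-50372202), named for the gene of a GA-binding protein subunit, had 4976, 5842 and 6223 normalised reads in the untreated libraries, 2896, 2638 and 2923 with DAC, 3899, 4145 and 6107 with ATRA and 3113, 2733 and 2881 with DAC + ATRA. Both DAC groups lay below all untreated libraries, and the ATRA group overlapped them, with library 9 apart from the other ATRA libraries. Its log2 fold change was -1.01 with DAC (SE 0.13, limma adjusted p = 6.39e-07). The transcript counted under the partner symbol GABPB1 is annotated in GENCODE 44 as the lncRNA GABPB1-IT1, so the placement and the counts of this pair refer to that RNA. OIP5-AS1, a long cytoplasmic RNA also known as cyrano, fell from a mean of 4338 (SD 95.4) to 3231 (SD 342) with DAC, a log2 fold change of -0.43 (limma adjusted p = 0.00077). NCBP2-AS2, annotated in GENCODE 44 as the protein-coding gene NCBP2AS2, fell by 0.66 on the log2 scale with DAC + ATRA (limma adjusted p = 9.69e-05), from 2069 to 2172 in the untreated libraries to 1277 to 1422. FGD5-AS1 rose with DAC + ATRA, from 2374 to 2477 normalised reads in the untreated libraries to 3171 to 3529 (log2 fold change 0.46, limma adjusted p = 0.000329). The groups named in this paragraph as changed did not overlap the untreated group, which was the case for 51.4% of all transcripts tested with DAC and 57.8% with DAC + ATRA. Between the other groups the share without overlap was 23.6% for ATRA against untreated, 28.4% for DAC + ATRA against DAC and 45.2% for DAC + ATRA against ATRA.

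Further antisense RNAs were looked at whatever their values. TMPO-AS1, opposite the gene of the nuclear lamina protein thymopoietin, fell from a mean of 521 to 361 with DAC and to 319 with DAC + ATRA. THAP9-AS1, opposite a transposase-derived gene, fell from 129 to 138 in the untreated libraries to 48.8 to 71.3 with DAC and 54.7 to 69.2 with DAC + ATRA. EPB41L4A-AS1, which lies inside its partner and hosts a small nucleolar RNA, fell with each treatment, by 0.70 with DAC, 0.58 with ATRA and 1.24 with both agents on the log2 scale (limma adjusted p = 6.97e-05, 0.00249 and 6.42e-09). CD27-AS1 was not called with any treatment, with group means of 22.8 to 28.8, and has no base of its own in GENCODE 44.

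Of the 79 rises with DAC, 29 were of antisense RNAs at or near the floor in untreated cells. At most 3 reads in every untreated library were counted for 33 antisense RNAs, all of which had passed the limit on the mean through treated libraries: 29 of them were called higher with DAC, 33 with DAC + ATRA and 4 with ATRA, counts that the choice of members fixes in part. The p-values of such antisense RNAs against untreated cells, given below, share this limit. With these set to the lowest fold their counts allow, the median over all members was 0.06 with DAC and 0.03 with DAC + ATRA, and with ATRA it turned from 0.02 to -0.02.

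The CpG count of the start window was set beside the calls as a description, with no test. The 55 with a window that rose with DAC had a median of 17 CpG (range 2 to 49), the 50 that fell 26.5 (0 to 54) and the 161 that were not called 26, with wide overlap. With DAC + ATRA the medians were 19 for 63 that rose, 26.5 for 66 that fell and 26 for 137 not called. Level and arrangement moved with it. The 18 with at most 3 reads in every untreated library, which had passed the limit through treated libraries, had a median of 15.5 against 26 for the other 248, and without them the 40 that rose with DAC had 19. By arrangement, windows of the 159 head-to-head antisense RNAs had a median of 27 CpG and those of the 20 inside the partner 8. Of the 36 inside the partner, 17 rose and 8 fell with DAC + ATRA, and of the 205 head to head 46 rose and 51 fell, beside the 28.6% and 15.5% of symbols given above.

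**Figure D2:**
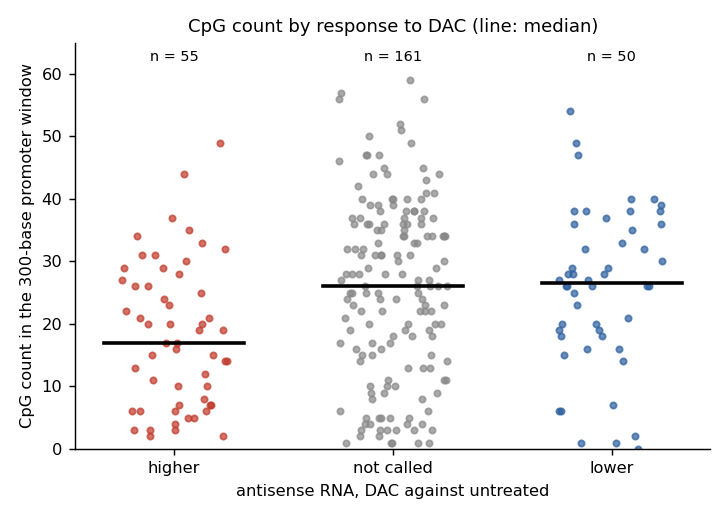
CpG count in the 300-base RefSeq start window (y axis) of 266 antisense RNAs by their call with DAC against untreated cells (x axis); each point is an antisense RNA and the line is the median. The median was 17 for those that rose, 26 for those not called and 26.5 for those that fell, with wide overlap.

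PROSER2-AS1 (chr10:11849608-11894700, minus strand, 6 exons) had the largest fold change with DAC. It had 0, 1.82 and 1.85 normalised reads in the untreated libraries, 817, 714 and 820 with DAC, 3.17, 0 and 1.67 with ATRA, and 368, 454 and 456 with DAC + ATRA. All 6 libraries with DAC lay above 300, the ATRA group stayed at or near the floor, and the libraries with both agents lay below those with DAC alone, a difference that was not called (limma adjusted p = 0.274). The change was called with DAC (limma adjusted p = 8.80e-10) and with DAC + ATRA (limma adjusted p = 2.20e-09). PROSER2-AS1 passed the limit on the mean only through libraries with DAC, so that choice fixes these calls in part. Its partner PROSER2, which it overlaps, had means of 109 untreated, 156 with DAC and 99.8 with DAC + ATRA, neither of them called. PROSER2 fell by 0.67 on the log2 scale with ATRA (limma adjusted p = 0.00621).

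AFAP1-AS1 (chr4:7754077-7778928), which overlaps the gene of an actin filament-associated protein, had 10.1, 18.2 and 27.7 normalised reads in untreated libraries, 1537, 1114 and 1340 with DAC, 28.5, 20.9 and 31.6 with ATRA and 1390, 1505 and 1375 with DAC + ATRA. Its log2 fold change was 6.17 (SE 0.25, limma adjusted p = 4.64e-13) with DAC and 6.28 (limma adjusted p = 2.55e-13) with DAC + ATRA. The counted transcript of AFAP1 stayed under a mean of 5. PIK3CD-AS2, head to head with the gene of the leukocyte phosphoinositide 3-kinase subunit delta, had no read without DAC, 37.8 to 76.0 normalised reads with DAC and 22.6 to 28.4 with DAC + ATRA, at least 19.7-fold and 9.11-fold over the floor of 3 reads per library, and the difference between DAC + ATRA and DAC was not called (limma adjusted p = 0.109).

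**Figure D3:**
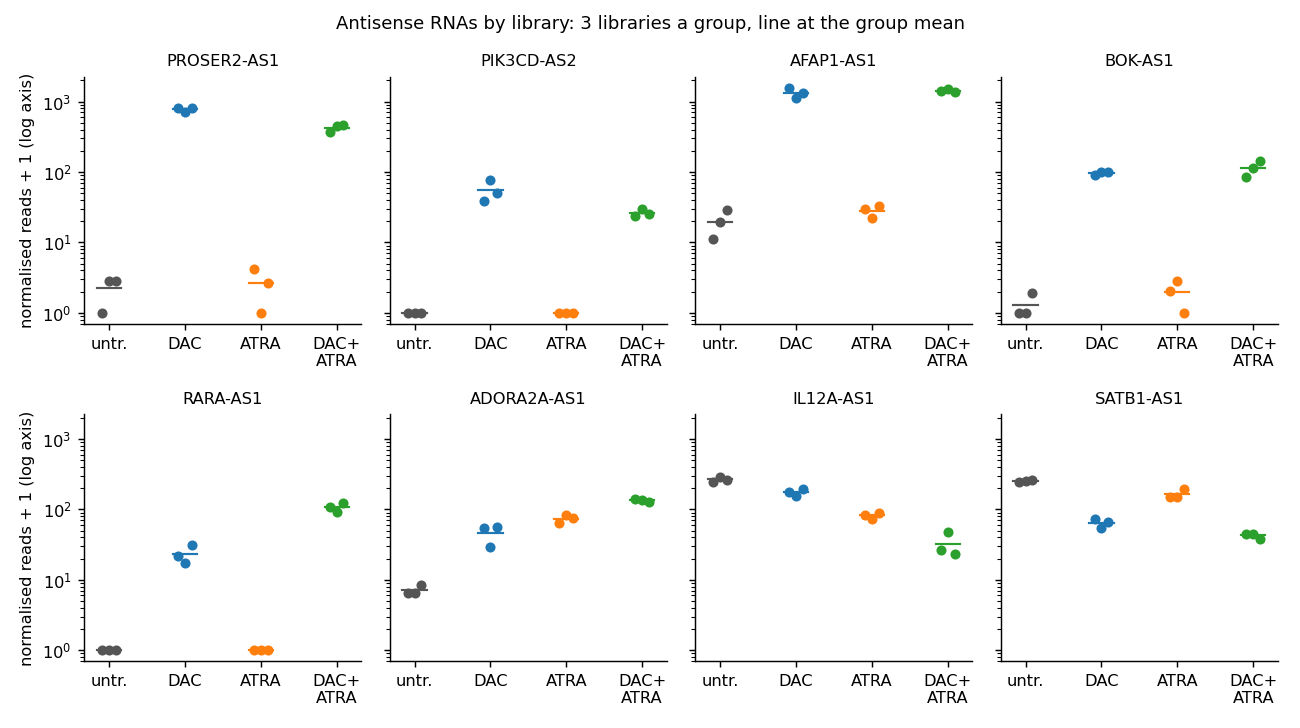
Normalised reads + 1 (log y axis) of 8 antisense RNAs in the 12 libraries, 3 a group (x axis), with a line at each group mean. PROSER2-AS1, PIK3CD-AS2, AFAP1-AS1, BOK-AS1 and RARA-AS1 were high only in libraries with DAC, ADORA2A-AS1 was higher in each treated group, and IL12A-AS1 and SATB1-AS1 were lowest with DAC + ATRA.

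The falls with DAC started from readily counted levels. SATB1-AS1 (chr3:18445237-18469714), head to head with the gene of a chromatin organiser, had 242, 252 and 260 normalised reads in the untreated libraries, 71.3, 52.6 and 65.7 with DAC, 149, 150 and 196 with ATRA and 44.3, 44.2 and 37.1 with DAC + ATRA. Every treated library lay below the untreated ones, and the fold change was -1.99 with DAC (SE 0.16, limma adjusted p = 1.85e-10) and -2.56 with DAC + ATRA (limma adjusted p = 7.99e-13) on the log2 scale. SATB1 fell too, by 0.71 with DAC and by 1.05 with DAC + ATRA. TMCC1-AS1, ITPR1-AS1 and HNRNPU-AS1 fell by 1.89, 2.05 and 1.87 with DAC. The transcript listed as HNRNPU-AS1 went from 1224 to 1455 normalised reads in untreated libraries to 310 to 416, while the coding HNRNPU transcript went from 655 to 711 to 371 to 496. FOXP4-AS1, BSN-AS2 and KCNIP2-AS1 fell with DAC + ATRA, each from at most 24.9 normalised reads in any untreated library to at most 4.94, a level close to the floor.

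ATRA alone moved few antisense RNAs, and several of those moved further when DAC was added. TMPRSS4-AS1, annotated in GENCODE 44 as the protein-coding gene SMIM35, had no read in the untreated libraries, 24.3, 19.1 and 29.1 normalised reads with ATRA, at most 1.08 with DAC and 19.0, 10.5 and 16.1 with DAC + ATRA. That is at least 8.73-fold over the floor with ATRA, and both ATRA groups lay above all libraries without it. Its partner TMPRSS4, a membrane serine protease, was at 0 in untreated libraries, 1.08 to 6.82 with DAC, 7.28 to 15.0 with ATRA and 139 to 156 with DAC + ATRA, and was called higher in each treated group.

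ADORA2A-AS1 (chr22:24429206-24494800), overlapping the gene of an adenosine receptor, had 5.51, 5.46 and 7.39 normalised reads untreated, 53.0, 28.3 and 54.8 with DAC, 63.4, 81.0 and 74.1 with ATRA and 139, 134 and 126 with both. The log2 fold changes were 2.65 with DAC, 3.38 with ATRA and 4.24 with both agents (limma adjusted p = 5.83e-10, 2.31e-11 and 3.65e-14). EIF1B-AS1, opposite a translation initiation factor gene, rose from 3.64 to 4.62 normalised reads to 24.1 to 39.1 with ATRA and 47.4 to 58.1 with DAC + ATRA. USP30-AS1, inside the gene of a mitochondrial deubiquitinase, had at most 1.85 normalised reads untreated, 2.50 to 7.28 with ATRA (limma adjusted p = 0.00495) and 16.3 to 29.7 with both, and the ATRA call was lost under 8 of the other settings.

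IL12A-AS1 (chr3:160206509-160225299) fell the most with DAC + ATRA. Although named for the interleukin-12 p35 gene, its start lies 236345 bp from the nearest annotated one of IL12A, which had at most 1 read in any library. The normalised reads were 242, 290 and 263 in untreated libraries, 177, 156 and 190 with DAC, 82.4, 72.8 and 88.2 with ATRA and 25.3, 46.3 and 22.2 with DAC + ATRA. No groups overlapped, and the log2 fold changes were -0.60 with DAC (limma adjusted p = 0.0166, not called), -1.70 with ATRA and -3.11 with DAC + ATRA (limma adjusted p = 4.27e-07 and 7.17e-13). VIM-AS1, which starts 1343 bp from the gene of the intermediate filament protein vimentin, moved up with DAC and down with ATRA: it had 75.6 to 103 normalised reads untreated, 185 to 215 with DAC, 22.2 to 33.3 with ATRA and 110 to 134 with both. The VIM transcript of highest mean, which is annotated as a target of nonsense-mediated decay, followed with log2 fold changes of 2.45 with DAC (limma adjusted p = 3.46e-07) and -1.79 with ATRA (limma adjusted p = 0.000158). JHDM1D-AS1, annotated as KDM7A-DT, fell with ATRA from 129 to 165 to 44.1 to 67.4 and lay between with DAC + ATRA, at 78.7 to 103.

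DAC + ATRA differed from DAC alone for 36 antisense RNAs, 17 higher and 19 lower, against 5.40% and 4.34% of symbols and 4.30% and 2.97% of all transcripts. It differed from ATRA alone for 149, 70 higher and 79 lower (19.4% and 21.9%), against 22.4% and 10.3% of symbols and 16.6% and 8.81% of all transcripts. The difference between the effect of DAC in the presence and in the absence of ATRA, tested as an interaction, passed for 5 antisense RNAs, 2 of them positive and 3 negative, against 0.557% and 1.23% of symbols and 0.403% and 0.787% of all transcripts. RARA-AS1, SLCO4A1-AS1 and WDR86-AS1 rose further with both agents than with DAC. SLCO4A1-AS1, opposite the gene of an organic anion transporter, had at most 1.85 normalised reads untreated, 1.99 to 5.41 with DAC, 10.01 to 21.1 with ATRA and 66.9 to 76.6 with DAC + ATRA.

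The second comparison set each antisense RNA beside the gene it is named for, again by the transcript of highest mean. A partner was in the table for 354 antisense RNAs and had a mean of at least 5 for 257 of them. With DAC 80 of these pairs had a partner called higher and 30 a partner called lower (31.1% and 11.7%, beside 26.0% and 10.4% of symbols). With ATRA the counts were 17 and 7 (6.61% and 2.72%, near the 5.68% and 2.26% of symbols), and with both agents 81 and 34 (31.5% and 13.2%, beside 28.6% and 15.5%). With DAC both members of 18 pairs rose and both of 6 fell, the antisense RNA rose and the partner fell in 3, the reverse was seen in 14, only the antisense RNA was called in 53, only the partner in 69, and neither in 94. With DAC + ATRA both rose in 27 and fell in 10, the antisense RNA rose with a falling partner in 6 and fell with a rising partner in 21, only the antisense RNA was called in 63, only the partner in 51 and neither in 79. At these shares of calls, some pairs of every kind would also arise between unrelated RNAs. Whether the counts of pairs differ from that was not tested. With ATRA both rose in 4 pairs and fell in 1. By limma 0 pairs went in opposite directions with ATRA, edgeR and DESeq2 also gave 0, and 6 did so at an unadjusted p below 0.05. The transcript of highest mean can be a minor form of the partner. With all transcripts of a symbol summed 24 of the 27 opposite pairs and 34 of the 37 pairs moving together with DAC + ATRA were called in the same way, and with DESeq2 21 and 29 were.

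**Figure D4:**
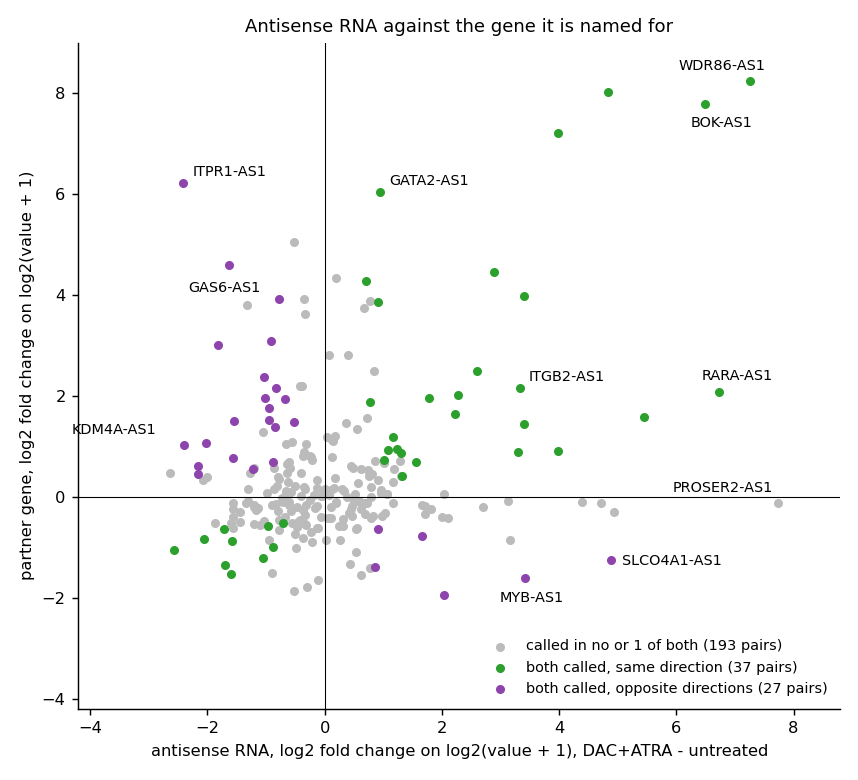
Each point is 1 of 257 pairs: log2 fold change of the antisense RNA (x axis) and of its partner gene (y axis), DAC + ATRA against untreated cells, on log2(normalised reads + 1), which understates changes that begin at 0. In 37 pairs both were called in the same direction (green), in 27 in opposite directions (purple), and in 193 at most 1 was called (grey).

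BOK-AS1 and BOK appeared together. BOK is a pro-apoptotic member of the BCL2 family, and the nearest annotated starts of the pair lie 232 bp apart. BOK-AS1 (chr2:241544403-241558977) had 0, 0 and 0.924 normalised reads in the untreated libraries, 89.7, 100 and 98.6 with DAC, 1.06, 1.82 and 0 with ATRA and 83.2, 113 and 143 with DAC + ATRA. BOK had no read in the untreated or ATRA libraries, 93.0, 196 and 156 normalised reads with DAC and 209, 245 and 209 with DAC + ATRA. No library without DAC exceeded 1.82 for either, and the calls had limma adjusted p = 3.63e-13 for BOK-AS1 and 6.39e-16 for BOK with DAC. Both RNAs passed the limit on the mean only through libraries with DAC, so that choice fixes these calls in part.

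WDR86-AS1 (chr7:151409161-151413354), 470 bp from the nearest annotated start of the gene of a WD-repeat protein, had no read in the untreated and ATRA libraries, 9.73, 12.7 and 14.9 normalised reads with DAC and 147, 148 and 163 with DAC + ATRA, at least 4.49-fold and 55.1-fold over the floor. WDR86 had 0 to 3.69 untreated, 47.6 to 76.7 with DAC, 3.17 to 4.99 with ATRA and 566 to 687 with DAC + ATRA. Both RNAs were higher with both agents than with DAC alone (limma adjusted p = 1.74e-07 for WDR86-AS1 and 7.43e-07 for WDR86). The counted WDR86 transcript has no defined coding sequence and starts inside the gene, at chr7:151395917.

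RARA-AS1 lies on chromosome 17 (chr17:40340867-40343136), with its start 737 bp from an annotated start of the gene of retinoic acid receptor alpha. It had no read in any library without DAC, 20.5, 16.6 and 29.9 normalised reads with DAC and 107, 89.5 and 122 with DAC + ATRA, at least 8.06-fold and 38.3-fold over the floor. RARA was present throughout, at 120 to 143 normalised reads in untreated libraries, 291 to 340 with DAC, 134 to 233 with ATRA and 526 to 573 with DAC + ATRA (log2 fold change 2.07, limma adjusted p = 2.62e-11). The counted RARA transcript shares all its bases with other RARA transcripts. RARA-AS1 was higher with both agents than with DAC alone (limma adjusted p = 0.000174).

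The ratio of the antisense RNA to its partner within each library was computed for 45 pairs, and the 7 of those named for their level or looked at whatever their values are given here, lists that were chosen with earlier results known. ITGB2-AS1 was also named for its interaction. Each ratio was tested with an exact two-sided permutation test, which permutes libraries within each level of the other agent and can give no p below 0.005; the p-values are not adjusted over the 45 pairs. ITGB2 encodes the beta-2 integrin chain CD18 of leukocytes. ITGB2-AS1 (chr21:44921051-44929678), 82 bp from the nearest annotated start of ITGB2, had 261, 214 and 267 normalised reads untreated, 2416, 2369 and 2324 with DAC, 794, 838 and 684 with ATRA and 2502, 2612 and 2323 with both. The ITGB2 transcript of highest mean had 91.4 to 142, 257 to 338, 384 to 438 and 480 to 508. Both RNAs rose in every treated group. The counted ITGB2 transcript is a retained-intron form. The log2 ratio of antisense RNA to partner was higher by 1.63 with DAC (exact p = 0.005) and lower with ATRA (change -0.47, exact p = 0.01).

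GATA2, a transcription factor of haematopoietic stem and progenitor cells, was near the floor without DAC, whereas GATA2-AS1 was not. GATA2-AS1 (chr3:128489212-128497366), 178 bp from the nearest annotated start of GATA2, had 124, 130 and 115 normalised reads untreated, 309, 397 and 439 with DAC, 144, 139 and 102 with ATRA and 219, 263 and 235 with DAC + ATRA. GATA2 had 3.68, 4.55 and 6.47 untreated, 838, 1011 and 1106 with DAC, 2.11, 1.82 and 2.50 with ATRA and 361, 422 and 361 with DAC + ATRA. The antisense RNA was thus present in all 12 libraries, and the log2 ratio to the partner changed by -5.91 with DAC (exact p = 0.005) and by 0.82 with ATRA (exact p = 0.005). The log2 fold change of GATA2-AS1 was 1.61 with DAC (limma adjusted p = 2.79e-09), that of GATA2 7.40 (limma adjusted p = 3.17e-20). The counted GATA2 transcript has 28 bases of its own.

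Of the other 5 pairs, TMPO-AS1 fell against its partner with DAC (change of the log2 ratio -0.48, exact p = 0.005), and the ratios of NCBP2-AS2 and THAP9-AS1 changed by -0.52 and -0.56 (exact p = 0.03 and 0.045). That of OIP5-AS1 changed by -0.16 (exact p = 0.225), and that of GABPB1-AS1, which is against GABPB1-IT1 and not the coding gene, by -0.34 (exact p = 0.045). With ATRA the change of these 5 ratios was between -0.35 and -0.05, with exact p from 0.08 to 0.665. A p that misses 0.05 does not show equal changes. The counted NCBP2 transcript is a retained-intron form.

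**Figure D5:**
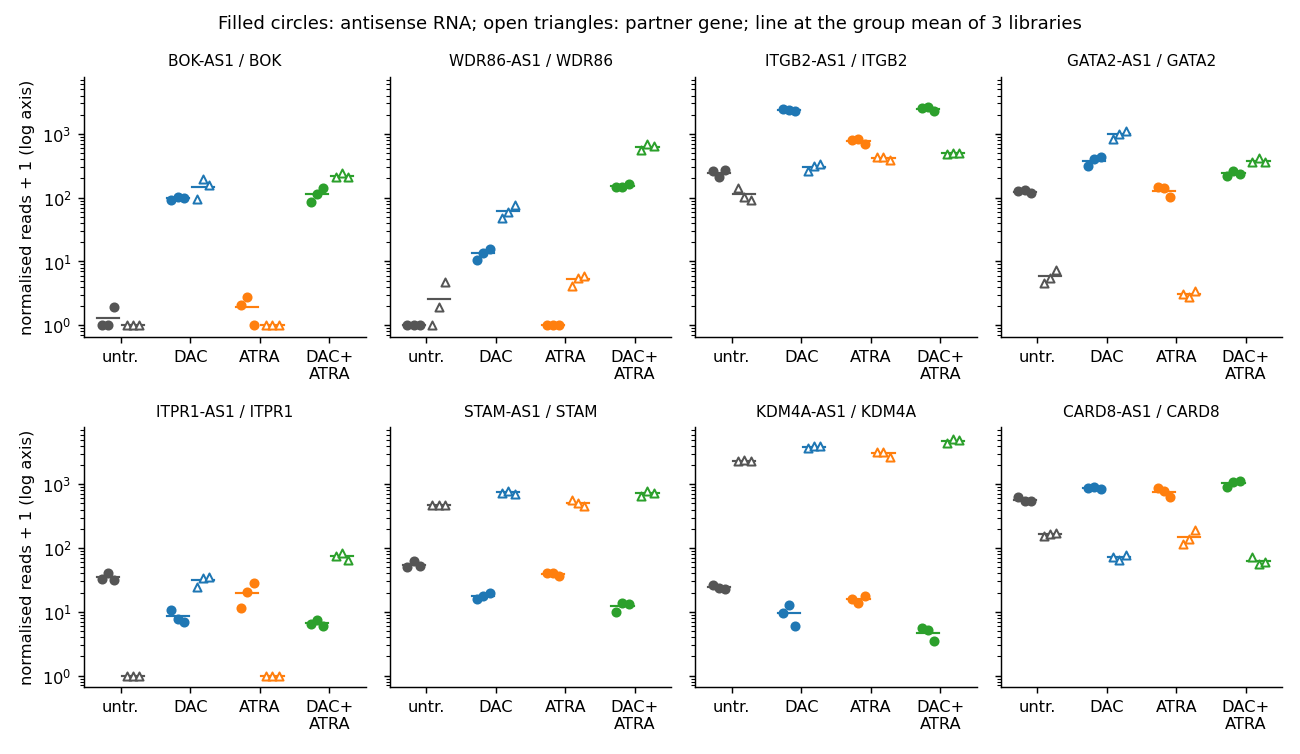
Normalised reads + 1 (log y axis) of 8 antisense RNAs (filled circles) and their partner genes (open triangles) in the 12 libraries by group (x axis), with a line at each group mean of 3. In the upper row both rose in libraries with DAC; in the lower row ITPR1-AS1, STAM-AS1 and KDM4A-AS1 fell while the partner rose, and CARD8-AS1 rose while CARD8 fell.

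Pairs in which the antisense RNA fell and the partner rose with DAC + ATRA numbered 21, of which 12 lay head to head, as did 167 of all 257 pairs. ITPR1-AS1 (ITPR1-DT, chr3:4490312-4493201), 144 bp from the start of the gene of an inositol trisphosphate-gated calcium channel, had 32.2, 39.1 and 30.5 normalised reads untreated, 9.73, 6.82 and 5.98 with DAC, 10.6, 19.1 and 27.5 with ATRA and 5.42, 6.32 and 4.94 with DAC + ATRA. ITPR1 had no read in the untreated and ATRA libraries, 23.8 to 33.9 with DAC and 64.3 to 82.1 with DAC + ATRA. Each library without DAC held the antisense RNA and no read of this ITPR1 transcript, and each library with DAC held reads of both. The counted ITPR1 transcript is 565 bases long with 41 bases of its own and starts far inside the gene, at chr3:4814528, so it does not report the start shared with ITPR1-AS1.

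STAM-AS1 (STAM-DT, chr10:17641284-17643878), 273 bp from the gene of an endosomal sorting protein, fell from 48.7 to 61.9 normalised reads in untreated libraries to 15.1 to 18.9 with DAC and 9.04 to 12.6 with DAC + ATRA. STAM rose from 473 to 475 to 714 to 794 and 658 to 770. KDM4A-AS1, inside the gene of a histone H3 lysine demethylase, fell from 22.2 to 25.7 to 2.47 to 4.52 with DAC + ATRA, and KDM4A rose from 2313 to 2400 to 4395 to 5069. In both pairs the DAC + ATRA libraries did not overlap the untreated ones for either RNA.

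Other partners that rose beside a falling antisense RNA were GAS6, the ligand of the TAM receptor kinases, MMP25, a leukocyte membrane metalloproteinase, PRKAG2, a subunit of AMP-activated kinase, PXN, the focal adhesion protein paxillin, and DNAJC3, a co-chaperone of the endoplasmic reticulum. The groups of GAS6 were far apart: it went from at most 2.76 normalised reads untreated to 27.4 to 37.1 with DAC + ATRA, and GAS6-AS1 from 654 to 672 to 374 to 401. MMP25, whose counted transcript has 9 bases of its own, rose by 1.94 on the log2 scale with DAC + ATRA and MMP25-AS1 fell by 0.68. PRKAG2 rose by 3.02 and PRKAG2-AS1 fell by 1.82, while DNAJC3 rose by 0.69 and DNAJC3-AS1 fell by 0.89. TMCC1-AS1, annotated as TMCC1-DT, fell by 2.02 and TMCC1 rose by 1.06, and MFI2-AS1 fell by 2.16 and MFI2, the gene of melanotransferrin, rose by 0.46. FOXD2-AS1 fell by 0.85 and the forkhead gene FOXD2 rose by 1.38.

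Of the other pairs of this kind, the partner started at or near the floor in some. TM4SF19, a tetraspanin-like membrane protein gene, had no read without DAC and 19.8 to 27.4 normalised reads with DAC + ATRA, while TM4SF19-AS1 fell from 44.1 to 61.0 to 11.6 to 20.8. TRAF3IP2, an adaptor of interleukin-17 signalling, went from at most 0.924 to 7.37 to 11.8, and TRAF3IP2-AS1 fell by 0.92 on the log2 scale. TMEM92 rose by 2.38 and TMEM92-AS1 fell by 1.04. ITGA9, the integrin alpha-9 gene, rose by 1.51 and ITGA9-AS1 fell by 1.55. For PXN the rise was 1.96 and the fall of PXN-AS1 1.02 (limma adjusted p = 0.00771).

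ZNF436-AS1 fell by 1.56 and RNF139-AS1, next to the gene of a ubiquitin ligase, by 1.22, with rises of 0.77 and 0.55 in the partners. TOLLIP-AS1, next to the gene of a Toll-interacting protein, fell by 0.95, NFYC-AS1 by 0.53, TMEM9B-AS1 by 0.83 and PTGES2-AS1 by 0.95. The partner transcripts of these last 4 stayed at or below 25.3 normalised reads in every library, and the calls of NFYC-AS1, TMEM9B-AS1 and PTGES2-AS1 were lost under 6 to 8 of the other settings, that of PXN-AS1 under 8. The counted NFYC transcript is a retained-intron form, and that of TOLLIP has no defined coding sequence.

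The reverse, a rising antisense RNA with a falling partner, was seen with DAC + ATRA for 6 pairs. CARD8 encodes an inflammasome sensor. CARD8-AS1 (chr19:48255675-48258199) had 629, 541 and 551 normalised reads untreated, 879, 911 and 836 with DAC, 871, 780 and 628 with ATRA and 918, 1091 and 1128 with DAC + ATRA. The counted CARD8 transcript, which has no defined coding sequence and starts inside the gene, had 152 to 170 untreated, 63.3 to 76.7 with DAC, 113 to 191 with ATRA and 55.8 to 70.5 with both. Both groups with DAC lay apart from the untreated group for either RNA, and the ATRA group overlapped it for both.

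MYB, a transcription factor of immature blood cells, went from 11.03 to 25.5 normalised reads untreated to 4.52 to 6.32 with DAC + ATRA (limma adjusted p = 0.000565), and MYB-AS1 from at most 0.924 to 12.6 to 17.3 (limma adjusted p = 6.44e-07). SLCO4A1 fell by 1.25 on the log2 scale beside the rise of SLCO4A1-AS1. TONSL, a gene of replication fork repair, fell by 1.95 while TONSL-AS1 reached 6.18 to 8.42 from at most 2.76. PSMG3, a proteasome assembly chaperone gene, fell by 0.63 and PSMG3-AS1 rose by 0.92, and PAXBP1 fell by 0.77 with a rise of 1.66 in PAXBP1-AS1.

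Genes of the nuclear machinery that degrades or edits antisense and promoter-upstream RNA were examined as a list. Of 29 symbols, 25 were tested. The list holds MTREX and INTS11 under an older name too (SKIV2L2 and CPSF3L), and these were tested under the older name only. With DAC the exosome genes EXOSC2, EXOSC3, EXOSC4, EXOSC7, EXOSC8, EXOSC9 and EXOSC10 fell and the double-strand RNA editing gene ADARB1 rose, 7 and 1 of 25, where 10.4% of symbols fell and 26.0% rose. With DAC + ATRA EXOSC2, EXOSC3, EXOSC8, EXOSC9, EXOSC10 and the poly(A)-binding gene PABPN1 fell while ADAR and ADARB1 rose, 6 and 2 of 25, where 15.5% of symbols fell and 28.6% rose, and with ATRA ADARB1 rose, where 5.68% did. For DAC, ATRA and DAC + ATRA the median log2 fold change of the tested genes came to -0.21, -0.08 and -0.23, beside the medians of all transcripts given above. EXOSC2 had a mean of 191 (SD 4.70) untreated, 125 (SD 10.9) with DAC and 106 (SD 15.6) with DAC + ATRA. ADARB1 had 24.8 (SD 2.33) untreated, 60.2 (SD 4.17) with DAC, 61.8 (SD 14.8) with ATRA and 131 (SD 19.7) with both. Their part in the levels of the antisense RNAs was not tested.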

How the data were processed

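RNA depleted of ribosomal RNA was sequenced with a strand-specific paired-end kit. Per the labels and methods, the authors used FastQC, STAR on hg38, HTSeq and DESeq2, and versions, annotation and strand setting were not given in the sources used here. The deposited signal values are read counts divided by a size factor per library: all values came out as whole reads within 0.001 after division by a step estimated for each library. Columns carry a treatment and a running number, which gave the group, and 0 columns belonged to other series.

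Transcripts with a mean of at least 5 were tested with limma 3.58.1 (trend, robust) in R 4.3.3 on log2(value + 1), all 12 libraries in 1 fit, Benjamini-Hochberg adjustment, threshold 0.01. edgeR 4.0.16 on TMM-scaled recovered reads, DESeq2 1.42.0, other scalings, filters and a pseudocount of 0.1, and leaving out each library were alternatives. Scripts were tested on simulated data. Python 3.11.15 with scipy 1.17.1 was used for ratios.

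The members and lists were chosen with earlier results of these data known. Named were, among called members not overlapping untreated libraries, the 5 largest and 4 smallest changes per treatment, the 2 largest and 2 smallest of the other comparisons, the 5 highest means, pairs opposite with DAC + ATRA, partners, and a short list whatever its values. An item this rule names is not reported here. Intervals and floors cover counting error only.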

Additional observations from a re-analysis of the deposited data

Results flagged for a closer look

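The effect of DAC in the presence of ATRA differed from that in its absence, by the limma interaction term on the log2 scale, for 5 antisense RNAs. TP73-AS1, annotated as a transcribed unitary pseudogene, had 1.84 to 3.69 normalised reads untreated, 9.74 to 12.97 with DAC, 2.11 to 4.55 with ATRA and 119 to 157 with both, an interaction of 3.62 (limma adjusted p = 2.2e-05). WDR86-AS1, with values given above, had an interaction of 3.53 (limma adjusted p = 0.0002). This call was lost with a pseudocount of 0.1 (limma adjusted p = 0.165), with edgeR and with DESeq2 (adjusted p = 0.288).

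For ADORA2A-AS1 the interaction was -1.79 (limma adjusted p = 0.00157) and for ITGB2-AS1 -1.58 (limma adjusted p = 3.92e-07): both rose with each agent, and less with the combination than the sum of the log2 changes. LPP-AS2, named here after its values were seen, had 97.4 to 109 normalised reads untreated, 121 to 156 with DAC, 164 to 177 with ATRA and 103 to 135 with both, an interaction of -0.992 (limma adjusted p = 0.00838) that was lost under 12 of the other settings.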

How the results depend on the processing

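No called log2 fold change of a named antisense RNA reversed, and no ratio with an exact p below 0.05 did. Counts of antisense RNAs or pairs cannot reverse and were compared by size only: 21 comparisons with another setting moved and 337 stayed close. Library-size scaling turned the median of all transcripts tested from 0.04 to -0.08 with DAC and from 0.04 to -0.11 with DAC + ATRA. Antisense RNAs lower with ATRA (6) were 10 with edgeR, with edgeR without DAC library 6 (chosen after seeing the data), with DESeq2 and with transcripts of a symbol summed, 12 at an adjusted p below 0.05, and 4 to 11 when a library was left out (11 without ATRA library 9). Those higher with ATRA (16) were 27 at 0.05 and 10 to 17 when a library was left out (10 without untreated library 2). Pairs moving together with ATRA (5) were 9 at 0.05 and 9 with sums, and 3 to 6 without a library (3 without untreated library 2 or ATRA library 8). Pairs opposite with ATRA (0) were 1 without a filter on low values. Interaction calls (5) were 3 with a pseudocount of 0.1, 9 at 0.05 and 4 to 10 without a library (10 without ATRA library 9). Calls of DAC + ATRA against DAC (36) were 57 at 0.05 and 18 to 42 without a library (21 without DAC library 4, 23 without DAC library 6, 18 without DAC + ATRA library 10, 22 without DAC + ATRA library 12). Without a library, rises with DAC numbered 74 to 82 and falls 44 to 63, and with DAC + ATRA 84 to 99 and 70 to 86. Library-size scaling took the share of rises among all calls from 66.7 to 55.7% with DAC, from 73.8 to 61.0% with ATRA and from 61.5 to 51.5% with DAC + ATRA. The causes were not tested. Levels near 3 reads limit the low antisense RNAs. No paired analysis was possible because the columns carry only treatment names and running numbers.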
